A study of Mus musculus with 4 samples.

Results

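Interferon gamma (Ifng), both chains of its receptor (Ifngr1 and Ifngr2) and 2 T-box transcription factors that induce it (Tbx21, which encodes T-bet, and Eomes) were followed in single-cell RNA data from mouse T-cell progenitors. They were taken by symbol from the deposited gene lists and are 5 of 31053 genes. Each symbol matched 1 row. The genes were selected on their UMI counts per cell and per hashtag in these data, which were already known, so their levels are given as descriptions with no test.

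Bone marrow progenitors were grown on the stromal line OP9-Dll1, whose Notch ligand lets T-cell development proceed in a dish, with IL-7 and Flt3-ligand at 10 ng/ml each. In 1 arm, progenitors of B6.Bcl2 transgenic mice aged 8 to 10 weeks received MSCV-Runx1-mCherry or the empty MSCV vector on day 2 and were harvested on day 4 or day 6. In the other arm, progenitors of B6.Cas9;Bcl2 transgenic mice received E42 vectors with guide RNAs against Runx1 (marked by hNGFR) and Runx3 (marked by mTurquoise), 3 guide pairs per gene, or against luciferase as a control, and were harvested on day 5 or day 8. Every culture was stained with its own hashtag, an antibody-bound DNA barcode, and live CD45-positive, reporter-positive cells that lacked lineage markers were sorted and pooled in equal numbers. All groups therefore carried the Bcl2 transgene. Its promoter, the age of the Cas9 mice and the antigens of the lineage stain are not given in the sources used here. Experiment 1 spanned culture days 4 to 5 and experiment 2 days 4 to 8.

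Each experiment held 8 hashtags, numbered here in column order, and which culture each marked is not given in the sources used here. Each hashtag was therefore treated as 1 sample of unknown condition, and no condition was compared with another. The values measure unique molecular identifiers (UMIs), which count captured mRNA molecules. They are given as counts, or as CPM, the count scaled to 1000000 UMIs of the same cells. Tagged cells numbered 8797 in experiment 1, with 691 to 1291 per hashtag, and 8335 in experiment 2, with 855 to 1312 per hashtag. The median depth was 24753 and 26338 UMIs per cell, and 28 tagged barcodes occurred in both experiments. Intervals are exact 95% intervals that cover counting error only, because there was no replicate of a known group. In values summed over a hashtag, fewer cells of a type and less RNA per cell cannot be told apart.

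Interferon gamma is a secreted cytokine made mainly by activated T cells, natural killer (NK) cells and type 1 innate lymphoid cells. It binds a receptor of 2 chains: IFNGR1 holds the ligand and carries JAK1, and IFNGR2 brings JAK2, which leads to transcription of response genes. T-bet and Eomes drive Ifng transcription in T and NK cells, together with STAT4 downstream of interleukin 12 and with Runx3.

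Ifng lies at chr10:118441046-118445894 of GRCm38, the build named in the submitters' processing notes. It was close to absent from experiment 1, with 13 UMIs in 10 of 8797 cells. In experiment 2 it had 1583 UMIs, but these sat in 67 of 8335 cells, which is 0.804% (interval 0.623 to 1.02%). With each cell thinned to 10000 UMIs, the shares were 0.0486% and 0.452%. Thus fewer than 1 cell in 100 held every Ifng UMI of the tagged cells in experiment 2.

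The promoter of Ifng is shown because its transcripts sat in so few cells, and that of Ifngr2 because its level differed most between hashtags among the members with enough UMIs for a ratio. Both are the 250 bases before the gene start from RefSeq (GRCm38.p6), plus strand, at chr10:118440796-118441045 and chr16:91546809-91547058. Capitals mark matches, on either strand, to the motifs named after them.

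Ifng: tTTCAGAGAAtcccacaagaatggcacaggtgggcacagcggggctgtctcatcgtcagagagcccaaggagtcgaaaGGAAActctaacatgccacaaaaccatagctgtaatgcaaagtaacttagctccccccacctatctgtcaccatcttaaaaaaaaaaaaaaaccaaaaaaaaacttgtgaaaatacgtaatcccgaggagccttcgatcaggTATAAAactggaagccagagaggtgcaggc
Ifngr2: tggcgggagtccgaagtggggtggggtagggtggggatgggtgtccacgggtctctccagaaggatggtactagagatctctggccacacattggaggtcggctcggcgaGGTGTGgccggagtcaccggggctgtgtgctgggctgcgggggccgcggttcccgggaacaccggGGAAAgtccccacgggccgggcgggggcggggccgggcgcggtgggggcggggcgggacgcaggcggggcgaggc

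The motifs searched were Runx (TGTGGT and TGCGGT), T-box (GGTGTG), NFAT (GGAAA), STAT (TTCNNNGAA) and the TATA box (TATAAA). In the Ifng window the matches were STAT from 249 to 241 bases before the start, NFAT from 172 to 168 and the TATA box from 30 to 25. In the Ifngr2 window they were T-box from 140 to 135 bases before the start and NFAT from 75 to 71. Neither window held the letters of either Runx motif, and no 2 matches overlapped. Of 32851 mouse promoter windows of this length, 14.0% held TGTGGT, 5.10% TGCGGT, 16.3% GGTGTG, 55.6% GGAAA, 7.02% TTCNNNGAA and 12.4% TATAAA. The Ifngr2 window was rich in CpG, with 25 CpG dinucleotides and 74.0% G and C, against 6 and 45.2% in the Ifng window. The median window had 6 CpG and 52.4% G and C. These matches describe the letters and do not show binding.

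By hashtag, the Ifng counts of experiment 2 were 5, 1, 279, 263, 583, 10, 3 and 439 UMIs in tags 1 to 8. The levels were 0.146, 0.0353, 6.54, 10.1, 20.4, 0.374, 0.127 and 19.7 CPM. Tags 3, 4, 5 and 8 were thus high and tags 1, 2, 6 and 7 low, with no overlap of their counting intervals, while tags 5 and 8 did not differ beyond counting error. In experiment 1 no hashtag had more than 5 Ifng UMIs, and tag 5 had none, which allows up to 0.147 CPM.

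**Figure D1:**
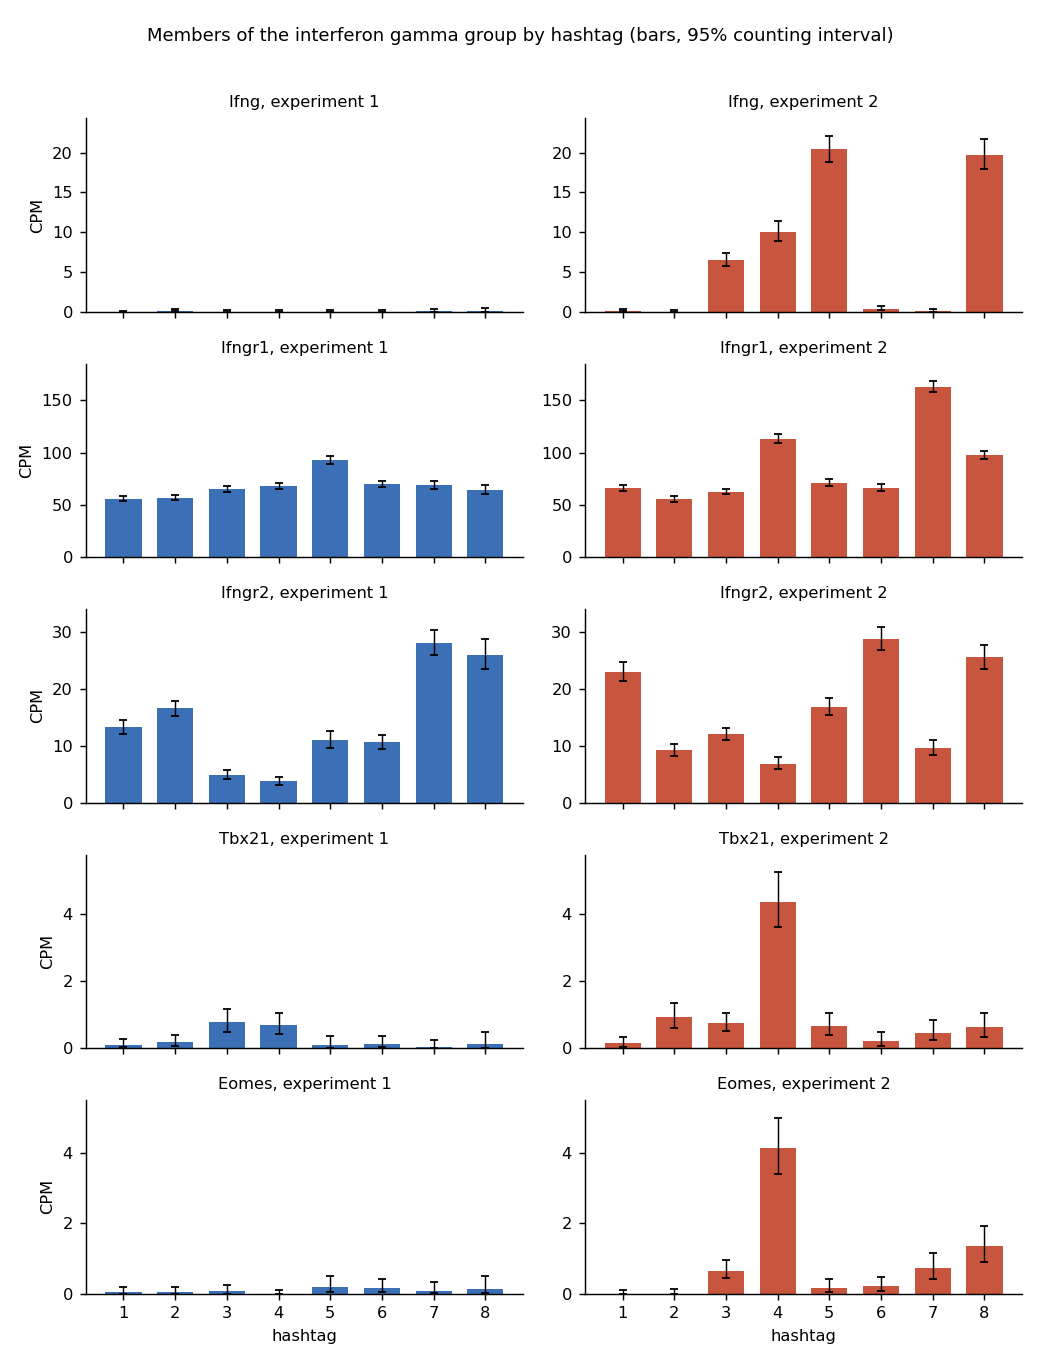
Level of each gene (CPM) in hashtags 1 to 8 of experiment 1 (left) and experiment 2 (right), with 95% counting intervals and the same axis for both experiments. Ifng is high in tags 3, 4, 5 and 8 of experiment 2 and near 0 elsewhere, Tbx21 and Eomes stand out in tag 4 of experiment 2, and Ifngr2 varies in both experiments.

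Single cells set these hashtag levels. The cell with the most Ifng, in tag 5, held 558 UMIs, 95.7% of that hashtag's Ifng and 35.2% of all Ifng in the experiment. The next cell, in tag 8, held 430 UMIs, 97.9% of its hashtag's. The highest 2 cells together held 62.4% of the UMIs (interval 60.0 to 64.8%) and the highest 10 held 93.7%. That interval takes UMIs as independent draws and does not cover the spread between cells. Without those 2 cells, tag 5 had 0.876 CPM and tag 8 had 0.405 CPM. The whole experiment then had 2.56 CPM, against 6.81 with them. In tag 4 the highest cell held 173 of 263 UMIs, and in tag 3 the 3 highest held 88, 82 and 73 of 279. The Ifng levels of tags 5 and 8 therefore each rested on 1 cell, whereas that of tag 3 came from several.

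The Ifng UMIs of experiment 2 lay in cells with transcripts of a mature CD8 T cell. After the values were seen, cells were split by at least 2 UMIs of both Trac, the constant region of the T-cell receptor alpha chain, and Cd8a, a chain of the CD8 coreceptor. Of the 1583 Ifng UMIs, 1552 (98.0%, interval 97.2 to 98.7%) were in such cells. This interval takes UMIs as independent draws, although a few cells held most of them, so it is too narrow for cells. They made up 37 of the 67 cells with an Ifng UMI (55.2%, 42.6 to 67.4%), and 26 of the 27 cells with at least 2 Ifng UMIs. Cd4, the coreceptor of helper T cells, had 0 UMIs in all 67 cells, which, at 3 cells, allows a share of cells with a Cd4 UMI of up to 4.48%. It may still be expressed below this depth.

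Most of these cells, 149 of 156, fell in 1 cluster. Tagged cells were clustered without the 5 members among the genes used, and 1 of 17 clusters, of 163 cells, held 1545 Ifng UMIs (97.6%). Its leading genes were Gzmc, Cd8b1, Trac, Xcl1, Ccl4, Cd8a, Dapl1, Ccl3, Gimap3 and Prf1, and it is called mature T-like from 5 markers of that list. Of its 163 cells, 106 came from tag 4. The sort was for cells without lineage markers and the labels describe Kit-high progenitors. Kit was at 10.2 CPM in the 156 cells with Trac and Cd8a against 36.5 CPM in cells with neither these nor Ncr1. Summed over the list of 13 mature T-cell markers, hashtags ranged from 911 to 2762 CPM in experiment 2, with the highest in tag 4, and from 960 to 1554 CPM in experiment 1.

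**Figure D2:**
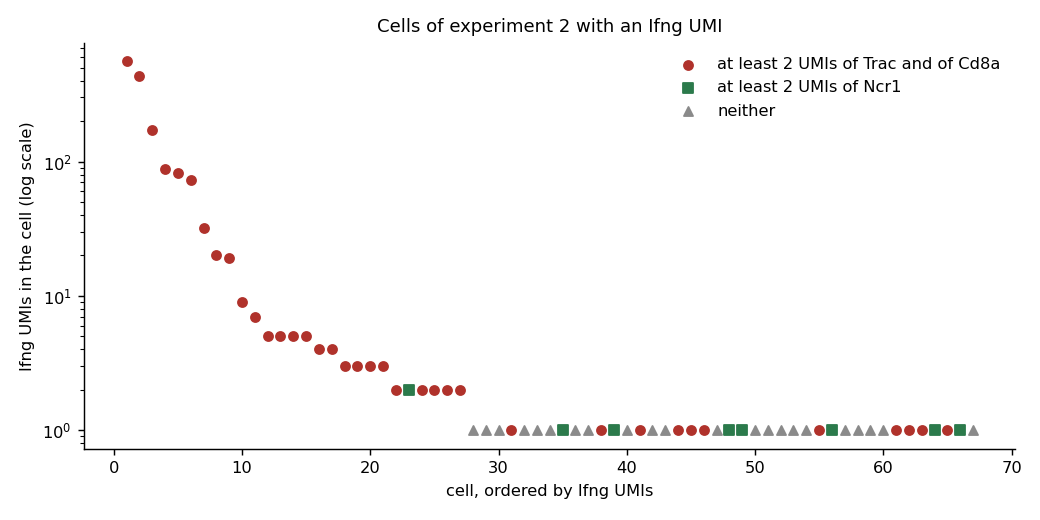
Ifng UMIs (log axis) in each of the 67 cells of experiment 2 with at least 1, ordered from the highest, coloured by transcripts of Trac and Cd8a or of Ncr1. All but 1 of the 27 cells with at least 2 Ifng UMIs had Trac and Cd8a, and the highest 2 held 558 and 430 UMIs.

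T-like cells were spread unevenly over the hashtags. Tags 1 to 8 of experiment 2 had 1, 1, 33, 100, 6, 11, 1 and 3 cells with Trac and Cd8a, of which 1, 0, 12, 16, 3, 3, 0 and 2 had an Ifng UMI. Those cells held 4, 0, 270, 259, 578, 4, 0 and 437 Ifng UMIs. Tags 4 and 3 thus had the most T-like cells and the most with Ifng, while tags 5 and 8 had the most Ifng UMIs from 6 and 3 T-like cells. Those UMIs rest on the 2 richest cells, without which the Ifng of tags 3, 4, 5 and 8 was 279, 263, 25 and 9 UMIs in all cells. In experiment 1 there were 4 such cells in all, of which 2 held 5 of the 13 Ifng UMIs.

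Of the 156 T-like cells of experiment 2, 37 had Ifng (23.7%, interval 17.3 to 31.2%). The T-like cells with Ifng were deeper than those without, with medians of 41705 and 23127 UMIs. Thinned to 10000 UMIs, with 9 shallower cells left out, the share was 16.3%. NK cells are the other classical source, and cells with at least 2 UMIs of Ncr1, an activating NK receptor, held Ifng in 8 of 62 (12.9%, 5.74 to 23.9%), thinned 7.14%, with at most 2 UMIs in a cell. The remaining 8117 cells held it in 22 (0.271%, 0.170 to 0.410%), thinned 0.0928%, always as 1 UMI, at a median depth of 26386 UMIs against 17955 in the Ncr1 cells. Single UMIs in droplets can come from free RNA, which was not tested, so the 22 cells are not read as Ifng-expressing. The same limit holds for most of the 8 Ncr1 cells, which held 9 Ifng UMIs in all. Some of the 22 lay in the NK and type 1 innate lymphoid-like cluster, which had 12 Ifng UMIs in 11 cells. The Ncr1 share lay above the share of the remaining cells, and the 2 intervals did not overlap.

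In experiment 2 some cytotoxic effector genes were found more often in the cells with Ifng than in all other tagged cells. Of the 67 cells with Ifng, 37 were T-like, so Ifng and cell kind cannot be told apart in this comparison. Of a list of 51 effector and lymphoid genes, 24 had a UMI in most of the 67 cells with Ifng, against 8 in most of the other 8268. In experiment 1, with 10 such cells, it was 12 against 12. Xcl1, a chemokine that attracts cross-presenting dendritic cells, was in 64.2% against 3.56%. Gzmb, a granzyme, was in 73.1% against 32.2%, and Prf1, which encodes the pore-forming perforin, in 46.3% against 1.86%. Among all 156 T-like cells, with or without Ifng, Xcl1 was in 87.2%, Gzmb in 80.8% and Prf1 in 39.1%. For Gzma, Gzmk, Tnf and Ccl5, also on the list, the intervals of the 2 shares overlapped, with Gzma in 73.1% against 63.9%. Lag3 and Pdcd1, inhibitory receptors of activated T cells, were in 65.7% against 12.7% and in 62.7% against 14.1%. Type 2 and type 17 cytokines were scarce in both sets of cells. Il4 and Il17a had 0 UMIs in the 67 cells and Il13 was in 1 (1.49%). Among the other 8268 cells, Il4 was in 1.20%, Il13 in 0.931% and Il17a in 0%. These genes therefore do not set the cells with Ifng apart. The median depth was 32513 UMIs in cells with Ifng and 26308 in the others, and the median mitochondrial share was 3.12% and 3.72%.

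Among genes with a UMI in at least 50% of the cells with Ifng, 4254 in all, the 10 with the largest ratio of CPM to the other cells were led by Zbtb32, a repressor induced in activated lymphocytes, at 69.5 against 0.703 CPM. The others were Xcl1, Cd8a, Cd2, Cd8b1, Trac, Gm19585, Gimap3, Zap70 and Il2rb. Cd8a was at 337.1 against 7.12 CPM and Il2rb, the receptor chain shared by interleukins 2 and 15, at 182.2 against 6.83 CPM. The 10 cells of experiment 1 shared less, and their list was led by Ms4a4b (279.8 against 14.7 CPM) and Tnfrsf9 (173.7 against 9.84 CPM), the latter a costimulatory receptor. It rests on cells of which 9 had a single Ifng UMI.

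Ifngr1, the ligand-binding chain (chr10:19591949-19610229), was detected broadly. It had at least 1 UMI in 67.0% of tagged cells of experiment 1 and 73.4% of experiment 2, or 42.6% and 46.8% after thinning. In experiment 1, tags 1 to 8 had 55.8, 57.1, 65.5, 67.9, 92.9, 70.2, 68.9 and 64.3 CPM. Tag 5 was highest and did not overlap any other, and 5 of the 7 pairs of neighbours in the order overlapped.

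In experiment 2 the Ifngr1 levels of tags 1 to 8 were 66.2, 55.9, 62.8, 113.5, 71.4, 66.5, 163.0 and 97.8 CPM. Tags 7, 4 and 8 stood above the other 5, which lay between 55.9 and 71.4 CPM. The ratio of the highest to the lowest hashtag was 1.66 (1.56 to 1.77) in experiment 1 and 2.92 (2.75 to 3.10) in experiment 2. Among genes averaging 5 CPM or more over hashtags, with 10 UMIs or more in the lowest, 10.7% in experiment 1 and 17.2% in experiment 2 had a ratio of at least 2. Ifngr1 passed that line in experiment 2 only, and the difference between the experiments was not tested.

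Ifngr2, the signalling chain that recruits JAK2 (chr16:91547059-91564007), differed more between hashtags. It was detected in 23.0% of cells of experiment 1 and 27.8% of experiment 2, or 11.1% and 13.2% after thinning. In experiment 1, tags 1 to 8 had 13.3, 16.6, 4.88, 3.80, 11.0, 10.7, 28.0 and 26.0 CPM. Tags 7 and 8 were high, tags 3 and 4 low, and the other 4 lay between, with no overlap of intervals between these sets.

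In experiment 2 the Ifngr2 levels were 23.0, 9.21, 12.0, 6.89, 16.9, 28.8, 9.60 and 25.5 CPM in tags 1 to 8. Tags 6, 8 and 1 were high and tag 4 lowest. The ratio of highest to lowest was 7.38 (6.06 to 9.06) in experiment 1, a size that 106 of 8767 genes (1.21%) reached, and 4.18 (3.55 to 4.95) in experiment 2, which 524 of 8766 genes (5.98%) reached. The median ratio over all these genes was 1.31 and 1.37. Ifngr2 was therefore called in both experiments and Ifngr1 in 1, against the background shares given above.

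The receptor chains went opposite ways with Il2ra, which encodes CD25, the interleukin 2 receptor chain that T-cell progenitors gain as they leave the earliest stage. Cells were split at 2 Il2ra UMIs after the values were seen. The split took in all tagged cells, of every cluster, so it is not read as a change of stage within T-cell progenitors. Ifngr2 was lower in the Il2ra cells in 8 of 8 hashtags of both experiments, with no overlap of intervals in any, at 0.357 to 0.666 times the other cells in experiment 1 and 0.235 to 0.654 times in experiment 2. Ifngr1 was higher in the Il2ra cells in 7 of 8 hashtags of experiment 1 and 8 of 8 of experiment 2, without overlap in 5 and 7. The exception was tag 2 of experiment 1, at 56.3 against 57.6 CPM.

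**Figure D3:**
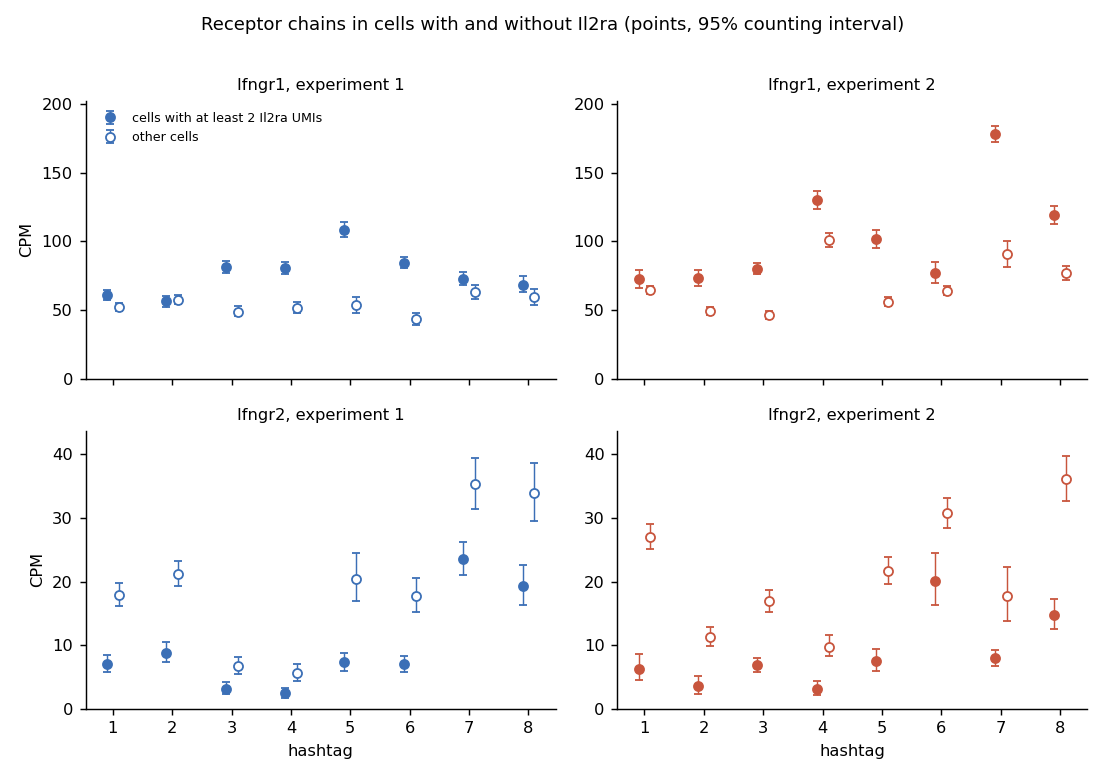
Ifngr1 (top) and Ifngr2 (bottom) in CPM, in cells with at least 2 Il2ra UMIs (filled) and other cells (open), by hashtag, with 95% counting intervals. Open points lie above filled points for Ifngr2 in all 16 hashtags, and below them for Ifngr1 in all but tag 2 of experiment 1.

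The differences between hashtags were also present on each side of that split. Among Il2ra cells, Ifngr2 ranged from 2.43 CPM in tag 4 to 23.5 CPM in tag 7 of experiment 1, a ratio of 9.67 (7.02 to 13.6), and from 3.15 CPM in tag 4 to 20.1 CPM in tag 6 of experiment 2, a ratio of 6.39 (4.32 to 9.63). Among the other cells the ratios were 6.34 (4.91 to 8.26) and 3.69 (3.04 to 4.49). Ifngr1 among Il2ra cells ranged from 72.7 CPM in tag 1 to 177.9 CPM in tag 7 of experiment 2. The mix of Il2ra cells differed as well, from 18.9% of tag 1 to 79.0% of tag 7 in that experiment.

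By cluster, Ifngr2 was highest in a dendritic-like cluster of experiment 2, led by Xcr1 and Naaa, at 64.2 CPM. This cluster had 41 cells, and its interval, 48.5 to 83.3 CPM, overlapped that of the next. Next were an unnamed cluster led by Ccl22 and Apol7c at 54.1 CPM, an unnamed cluster led by Clec4n and Ms4a4c at 44.1 CPM, and the granulocyte-like cluster at 37.8 CPM. The cluster led by Clec4n had 4 dendritic markers, but its leading genes, such as Il1b and Aif1, are those of phagocytes, so it was given no name. It was at 2.62 and 2.65 CPM in the T progenitor-like clusters, whose leading genes include Bcl11b, and at 2.15 CPM in the mature T-like cluster. In experiment 1 it was at 38.6 CPM in the granulocyte-like cluster, at 36.8 CPM in an unnamed cluster led by Sh2d1a and AA467197, and at 1.90 and 2.78 CPM in the clusters led by Pgam2. Clusters were made from the expression of all other variable genes, so these values describe them and no test was made. The granulocyte markers, summed over 10 genes, ranged from 199.5 CPM in tag 7 to 12449 CPM in tag 6 of experiment 2, the hashtag with the highest Ifngr2. In experiment 1 they were highest in tag 2, at 1532 CPM, and lowest in tag 7, which had the highest Ifngr2. Their part in the levels by hashtag was not tested.

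Ifngr1 was ordered differently. It was highest, at 213.1 CPM (183.6 to 246.1), in the dendritic-like cluster of experiment 2, which had 41 cells. Next, at 191.5 CPM (187.0 to 196.2), was an unnamed cluster of 1500 cells led by Gm4632, Akr1c12 and Sh2d1a. Of its cells, 40.7% came from tag 7. The intervals of these 2 clusters overlapped. The NK and type 1 innate lymphoid-like cluster had 129.2 CPM and the mature T-like cluster 127.1 CPM. The former was named from 4 markers, but Il13, a type 2 cytokine, and Icos were also among its leading genes, so it may be mixed. The lowest value of experiment 2, 40.9 CPM, was in a stem or multipotent progenitor-like cluster led by Serpina3f. In experiment 1 the highest cluster, led by Epcam and Rgcc, had 107.8 CPM. The mature T-like and T progenitor-like clusters thus had low Ifngr2 beside Ifngr1 at 63.3 to 127.1 CPM.

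**Figure D4:**
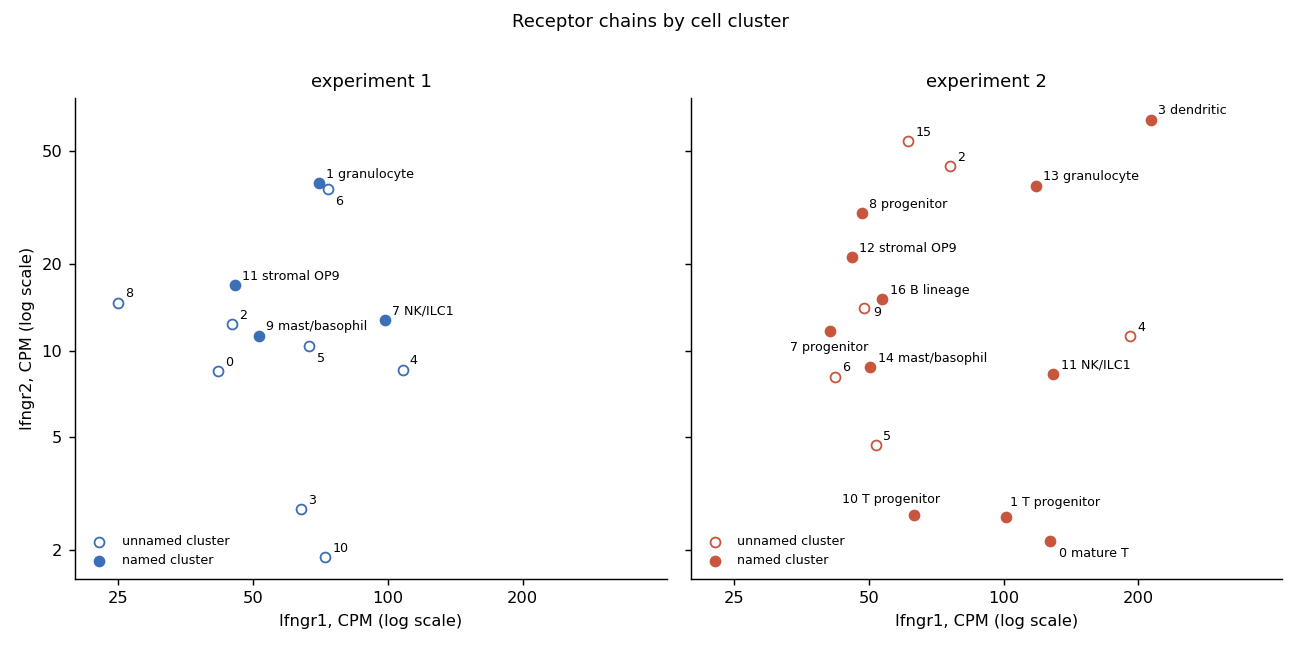
Each point is a cell cluster, placed by its Ifngr1 level (horizontal, CPM, log axis) and its Ifngr2 level (vertical, CPM, log axis), in experiment 1 (left) and 2 (right). Filled points are clusters named from marker lists. T progenitor-like and mature T-like clusters of experiment 2 sit at the bottom, and the dendritic-like and granulocyte-like clusters near the top.

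Within a cluster the hashtags still differed for some. In the unnamed cluster of experiment 2 led by Gm4632, Ifngr1 ran from 79.9 CPM in the 121 cells of tag 6 to 255.1 CPM in the 611 cells of tag 7. In a T progenitor-like cluster it was 53.1 CPM in tag 2 and 169.8 CPM in tag 4, while Ifngr2 there was 2.73 and 2.35 CPM. Over clusters with at least 2 hashtags of at least 40 cells each, Ifngr1 had a ratio of at least 2 in 0 of 8 in experiment 1 and 4 of 10 in experiment 2. Ifngr2 had one in 1 of 5 and 3 of 6 of those whose lowest hashtag had 10 UMIs or more. That filter set aside clusters such as that led by Gm4632, where Ifngr2 ran from 2.31 CPM in tag 4 to 22.9 CPM in tag 6. Without the filter, intervals of the lowest and highest hashtag did not overlap in 4 of 8 and 6 of 10 clusters for Ifngr2. For Ifngr1 this held in 5 of 8 and 7 of 10. The share of all genes within clusters is not given, so nothing is read from these counts.

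Transcripts of both chains were found in the same cell in 16.7% of cells of experiment 1 (interval 15.9 to 17.4%) and 22.4% of experiment 2 (21.5 to 23.3%). Ifngr1 alone was found in 50.4% and 51.0%, Ifngr2 alone in 6.35% and 5.37%, and neither in 26.6% and 21.2%. After thinning, both were found in 5.09% and 6.73%. A chain without a UMI may still be expressed at this depth. The 2 cells with the most Ifng had 0 UMIs of either chain, at depths of 49096 and 27035 UMIs.

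Tbx21 (chr11:97098007-97115331), the master regulator of type 1 lymphocytes, was rare. In experiment 1 it had 65 UMIs, at 4, 7, 23, 22, 2, 4, 1 and 2 in tags 1 to 8. Tags 3 and 4 were the highest, at 0.775 and 0.702 CPM. By cell marks, 60 of the 65 UMIs were in cells with neither Trac and Cd8a nor Ncr1. By cluster, the level was highest in the NK and type 1 innate lymphoid-like cluster, at 2.88 CPM from 9 UMIs. The clusters led by Pgam2, which were mostly cells of tags 3 and 4, held 20 and 16 UMIs, at 0.881 and 0.907 CPM.

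In experiment 2 Tbx21 had 227 UMIs, at 5, 26, 32, 114, 19, 6, 11 and 14 in tags 1 to 8. Tag 4 stood alone at 4.36 CPM (3.60 to 5.24), against 0.918 CPM in the next, tag 2. The T-like cells held 117 of the UMIs (51.5%), and in tag 4 they held 93 of 114. Outside the T-like and Ncr1 cells tag 4 had 0.689 CPM, below the 0.853 CPM of tag 2. Apart from the T-like cells, the cluster led by Clec4n held 43 Tbx21 UMIs in its 1013 cells.

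Eomes (chr9:118478186-118486132), which acts in NK cells and CD8 T cells, had 19 UMIs in experiment 1 and no hashtag above 5. In experiment 2 it had 194, at 0, 0, 28, 108, 5, 6, 17 and 30 in tags 1 to 8. Tag 4 had 4.13 CPM (3.39 to 4.99) and the next, tag 8, 1.35 CPM. Against tag 1, taken at its floor of 3 UMIs, tag 4 was at least 47.2-fold higher.

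Eomes lay in 2 kinds of cell. T-like cells held 93 of the 194 UMIs (47.9%), at 19.4 CPM, and Ncr1 cells held 70 (36.1%), at 58.4 CPM. In tag 4 the T-like cells held 84 of 108, whereas in tags 7 and 8 Ncr1 cells held 13 of 17 and 21 of 30. For Tbx21 the order was the other way, with 24.4 CPM (20.2 to 29.3) in T-like cells and 9.18 CPM (4.58 to 16.4) in Ncr1 cells. By summed level, the 2 factors thus differed in which of the 2 cell kinds was higher, without overlap of the counting intervals for either. These intervals take UMIs as independent draws and do not cover the spread between cells. By share of cells with a UMI, Eomes was in 36.5% of T-like and 48.4% of Ncr1 cells, with intervals that overlapped. Tbx21 was in 44.2% and 14.5%, without overlap. After thinning, the intervals of the shares overlapped for both factors.

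The shares of T-like cells with an inducer overlapped between those with Ifng and those without. Tbx21 was found in 14 of 37 cells with Ifng (37.8%, 22.5 to 55.2%) and in 55 of 119 without (46.2%, 37.0 to 55.6%). Eomes was found in 16 (43.2%, 27.1 to 60.5%) and 41 (34.5%, 26.0 to 43.7%). After thinning, the shares were 13.5% and 21.8% for Tbx21 and 13.5% and 15.5% for Eomes. By level, Tbx21 was at 17.1 and 27.7 CPM and Eomes at 19.8 and 19.3 CPM. These intervals overlap, cover counting error only, and do not show that the groups are alike. Prf1, given only as a summed level, was at 323.3 CPM in T-like cells with Ifng and 23.8 CPM in those without. Its UMIs were spread unevenly: single cells with Ifng held 105, 87 and 68, and the cell with the most Ifng held 0. Stat4, the transducer of the interleukin 12 signal, was at 94.3 CPM (79.2 to 111.4) and 33.4 CPM (27.5 to 40.2). These 2 intervals take UMIs as independent draws and do not cover the spread between cells. Tag 4 gave 100 of the 156 T-like cells but 16 of the 37 with Ifng. Ifng and hashtag therefore cannot be told apart in the comparisons of this paragraph. The cell with the most Ifng had no UMI of either inducer.

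Between the experiments, the ratio of experiment 2 to experiment 1 over all tagged cells was 116 (67.5 to 218) for Ifng, 9.71 (6.05 to 16.5) for Eomes and 3.32 (2.51 to 4.45) for Tbx21. It was 1.26 (1.23 to 1.28) for Ifngr1 and 1.24 (1.18 to 1.30) for Ifngr2. A ratio of at least 2 was reached by 3 of the 5 genes, against 8.89% of the 14693 genes with enough UMIs, and the median ratio of all was 0.931. Ifng helped to choose these genes, so nothing is read from that count. The Tbx21 ratio rests on tag 4, without which it was 1.86, and that of Eomes was then 4.85. Culture time, library and mix of cultures differ together between the experiments and cannot be told apart.

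Genes that carry or brake the receptor signal also varied between hashtags. Of 7 listed, all passed the filter on low values, and 5 in experiment 1 and 3 in experiment 2 had a ratio of at least 2, with medians of 2.33 and 1.79, against 10.7% and 17.2% of all genes. Socs1, the inhibitor that interferon gamma induces, was lowest at 18.8 CPM and highest at 114.2 CPM in experiment 1, and at 11.5 and 81.6 CPM in experiment 2. Jak1, the kinase carried by IFNGR1, was highest in tags 4 and 3 of experiment 1, at 322.7 and 306.7 CPM. In experiment 2 it was highest in tags 4 and 2, at 262.2 and 258.6 CPM. Its ratios of highest to lowest were 2.33 and 2.71. Hashtag numbers follow column order, so a shared number is not known to mark a shared culture. Ptpn2 and Ptpn6, phosphatases, did not reach 2 in either experiment.

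Genes that interferon gamma induces showed larger ratios. Of 26 listed, 24 passed the filter in experiment 1 and 20 of these had a ratio of at least 2, with a median of 4.60. In experiment 2 it was 22 of 23, with a median of 7.77. The shares of all genes were 10.7% and 17.2%. Tag 8 was the highest for 17 of 24 genes in experiment 1 and tag 6 for 12 of 23 in experiment 2. Cxcl10, a chemokine that draws activated T cells, ran from 1.55 to 53.1 CPM and from 0.847 to 50.4 CPM, the largest ratio of the list in both experiments. Many of these genes also respond to type I and type III interferons, and the 9 such genes listed had 0 UMIs in experiment 1. In experiment 2 there were 3 UMIs of Ifnb1 and none of the other 8. The sort was for CD45-positive cells, so these counts do not cover all cells of a dish. Which interferon acted was not tested.

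Groups of response genes differed in how their levels lay beside those of Ifng. In experiment 2 the sum of all 26 genes was highest in tag 5, at 4968 CPM, and so was Ifng. Summed over 10 interferon-inducible GTPases, which defend cells against intracellular microbes (Gbp2 to Gbp7, Igtp, Irgm1, Irgm2 and Iigp1), tags 1 to 8 of experiment 2 had 97.9, 142.0, 642.4, 472.5, 733.7, 910.9, 243.3 and 221.8 CPM. Tags 3, 4 and 5 were high in both Ifng and GTPases, and tags 1, 2 and 7 low in both. Tag 6 had the highest GTPases with 10 Ifng UMIs, and tag 8, with 439, was the third lowest. The Ifng of tags 5 and 8 rested on 1 cell each. Without these cells it was 0.876 and 0.405 CPM, with intervals that overlapped that of tag 6, so the place of both tags as high in Ifng depends on them. In experiment 1 the same sum was 253 to 421 CPM in tags 1 to 5 and 7, 721 CPM in tag 6 and 1153 CPM in tag 8, although tags 6 and 8 had 1 and 2 Ifng UMIs. Whether these genes responded to the Ifng in the data was not tested, and mRNA in a hashtag does not measure the cytokine in a dish.

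**Figure D5:**
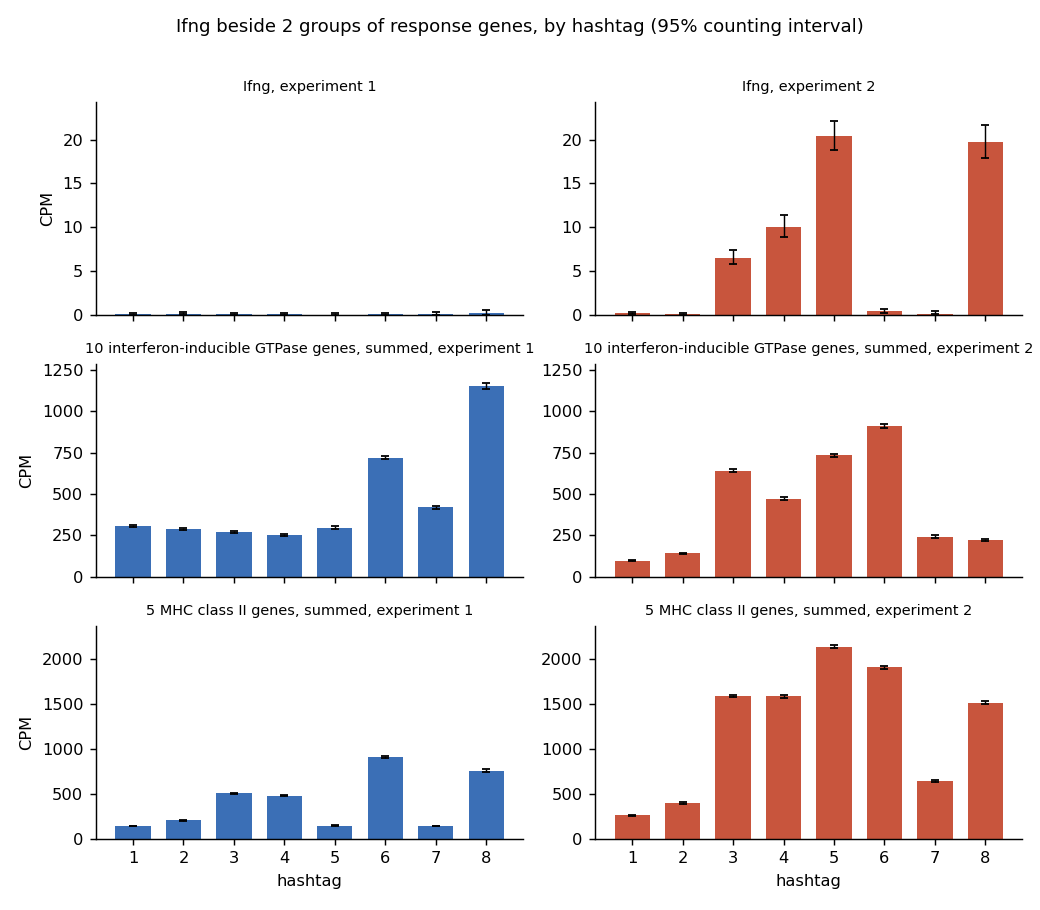
Ifng (top), the sum of 10 interferon-inducible GTPase genes (middle) and the sum of 5 MHC class II genes (bottom), in CPM by hashtag for experiment 1 (left) and experiment 2 (right), with 95% counting intervals. In experiment 2 tags 3, 4 and 5 are high and tags 1, 2 and 7 low in both Ifng and GTPases, tag 8 has high Ifng and low GTPases, tag 6 the reverse, and tag 5 is highest for Ifng and MHC class II. The Ifng bars of tags 5 and 8 rest on 1 cell each.

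The GTPases were low in the cluster that held most of the Ifng. In experiment 2 they were at 126 CPM in the mature T-like cluster, against 1647 CPM in the stromal OP9-like cluster and 688 CPM in the stem or multipotent progenitor-like cluster led by Serpina3f, whose leading genes include Gbp3. The stromal markers were highest in tag 2, at 788.8 CPM, where the GTPases were low. They were next in tag 6, at 747.3 CPM, where the GTPases were highest. The part of stromal cells in the levels by hashtag was not tested. Outside the dendritic-like and granulocyte-like clusters and the cluster led by Clec4n, the GTPase sum of tag 6 was 933.7 CPM, near its value over all cells. The 5 MHC class II genes listed (Ciita, Cd74, H2-Aa, H2-Ab1 and H2-Eb1), 3 of which are also dendritic markers of the lists used here, differed. In tag 5 of experiment 2 they were at 2138 CPM over all cells and 822 CPM outside those clusters, and in tag 8 at 1516 and 363 CPM. The list of 10 dendritic markers ranged from 559 CPM in tag 1 to 2340 CPM in tag 5, and those 2 hashtags were also the lowest and highest for the class II genes. Their part in this was not tested.

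Of 22 other inducers and cofactors of Ifng listed, 21 were in the files. In experiment 1, 15 passed the filter and 5 had a ratio of at least 2. In experiment 2 it was 11 of 17, with medians of 1.64 and 2.56, where 10.7% and 17.2% of all genes had one. Il2rb was at 25.7 CPM in tag 4 of experiment 2 and 1.75 CPM in tag 1. Il12rb2, a chain of the interleukin 12 receptor, was highest in tag 3 of experiment 1, at 36.2 CPM, and in tag 4 of experiment 2, at 22.3 CPM. Stat4 had ratios of 1.64 and 2.11. In T-like cells of experiment 2 Stat4 was at 52.0 CPM, against 12.3 CPM in cells with neither mark, and Il18r1, a receptor chain of interleukin 18, was at 33.2 against 4.05 CPM and at 135.2 CPM in Ncr1 cells. Of the receptor chains of other interferons, 3 passed and 1 of these, Il10rb, had a ratio of at least 2, in both experiments. Ifnar1, a chain of the type I receptor, had ratios of 1.80 and 1.33.

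Genes with the most similar profile over the 8 hashtags were found by the root mean square distance of log2(CPM + 1), each gene centred on its mean, among 575 genes in experiment 1 and 912 in experiment 2. For Ifngr2 they included Glrx, Ebi3, Ass1 and Ppp3ca in experiment 1, at distances of 0.21 to 0.24 log2 units against a standard deviation of Ifngr2 of 0.87. In experiment 2 they included Zfp36, Gm2a, Cd33 and Tnni2, at 0.20 to 0.23 against 0.67. For Ifngr1 they were Mier1, 1700097N02Rik, Fcho1, Ppt1 and Ngly1 in experiment 2, at 0.18 to 0.20 against 0.49. Its nearest in experiment 1, Endou, Bcl2, Nck2, Lat and Arpp21, were at 0.18 to 0.25, where its own standard deviation was 0.21. For Tbx21 in experiment 2 they were Serpinb6b, Fut7, Hdac4, Gch1 and Gtpbp2, and for Eomes Gimap6, Pdcd1, Pld3, Ltb and Ablim1. For Ifng they were Klrk1, Klrd1, H2-Eb1, H2-Aa and H2-Ab1, but at 1.23 to 1.31 log2 units, so no gene tracked it closely.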

How the data were processed

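The deposited matrices hold raw counts of UMIs per gene and cell and the deposited hashtag tables raw counts per hashtag and cell. The authors used Cell Ranger 3.0.0 with mm10 (GRCm38), per the submitters' processing notes. Of 31053 gene IDs, 30934 matched the gene name table. Kept cells had 500 genes or more and a mitochondrial share under 10%. A hashtag was called where it had at least 50 counts and at least 3 times the next, which set aside 535 and 1879 kept cells, doublets of 2 hashtags among them. Doublets within a hashtag were not removed.

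UMIs were summed per hashtag and divided by the total (CPM). Intervals are exact Poisson (CPM), Clopper-Pearson (shares) and conditional (ratios) intervals. PCR and capture error are not covered. Cells were clustered with scanpy 1.11.5 (2000 variable genes, 30 components, 15 neighbours, Leiden resolution 0.5) and named from at least 3 markers of a list among 50 leading genes, unless the top 10 went against the name. The ratio calls were tested on simulated counts. Alternatives covered the hashtag call (HTODemux of Seurat 5.3.0), the cell filter, TMM factors of edgeR 4.0.16, thinning, cell weights, leading cells, gene filters and clustering.

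Named genes were the members, list genes past the ratio of 2 or in most cells with Ifng, and the nearest or most enriched by the measures given. A few genes that this rule names are not reported here. Stat4, Il18r1 and Prf1 levels by cell kind, and the 2 groups of response genes, were chosen after their values were seen. The members and lists were chosen with earlier results of these data known. As no hashtag has a known condition, no p-value is given.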

Additional observations from a re-analysis of the deposited data

Results flagged for a closer look

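In experiment 1 the Ifngr1 level of tag 5, 92.9 CPM, stood apart from the other 7 hashtags, the next being 70.2 CPM. In experiment 2 tag 4 stood apart for Tbx21, at 4.36 CPM against 0.918 CPM in the next, and for Eomes, at 4.13 CPM against 1.35 CPM. The gap to the next hashtag was 0.613, 0.817 and 0.674 of the whole range of the 8. Gaps above the 95% value of Dixon were listed, a size that chance gives in about 1 of 20 groups. The genes were selected on these levels, so the gaps are descriptions and no test. Tag 4 held 100 of the 156 T-like cells of experiment 2, and their part in these 2 levels is given by their UMIs above.

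Ifng was also found in data that the comparisons above do not use. Kept cells of experiment 2 without a hashtag call held 193 Ifng UMIs in 22 cells, or 3.06 CPM, of which 166 were in 8 cells with Trac and Cd8a and 120 in 1 cell. In all, 46 of those cells had Trac and Cd8a. Barcodes that failed the cell filter held 9 Ifng UMIs in 1 barcode of experiment 1 and 8 in 2 barcodes of experiment 2.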

How the results depend on the processing

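Of 160 member levels recomputed under 8 alternatives, 127 stayed within the counting interval, and the highest hashtag was kept in 69 of 80. Both receptor chains kept their highest hashtag in all 32, at 0.913 to 1.21 times the level given. Without the 5 cells richest in Ifng, its level in experiment 2 was 1.08 CPM. With HTODemux the 2 top cells held 67.5% of the Ifng UMIs. Counting cells from 2 Ifng UMIs left 27 cells, of which 96.3% had Trac and Cd8a, with 99.9% of the UMIs in such cells. Among genes averaging 20 CPM or more, 354 and 572 genes had a hashtag ratio of at least 2, against 937 and 1511. Leaving out 1 hashtag at a time left 2 to 3 members at least 2-fold higher in experiment 2. The ratio of highest to lowest hashtag was then 1.26 to 1.66 and 2.03 to 2.92 for Ifngr1, and 5.74 to 7.38 and 3.13 to 4.18 for Ifngr2 (an alternative chosen after seeing the data). Both other clusterings put the same 97.6% of the Ifng UMIs in 1 cluster. No paired analysis was possible because no group has replicates of known condition. Depth limits Ifng, Tbx21 and Eomes: at 3 UMIs, the floor of a hashtag was 0.0788 to 0.207 CPM in experiment 1.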
